A study of Rattus norvegicus with 19 samples.

Results

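Cytochrome P450 enzymes of the Cyp2b subfamily were measured by 4 of the 31042 non-control probe sets of the Affymetrix Rat230_2 array. They are all the probe sets whose platform symbol field contains Cyp2b. The symbol field of 1 of them names 2 genes, Cyp2b2 and Cyp2b1, so the signal of this Cyp2b1/Cyp2b2 probe set cannot be divided between them. The other 3 carry 1 symbol each, namely Cyp2b3, Cyp2b21 and Cyp2b12. The platform's symbol fields name 14863 genes in all, 5 of them Cyp2b genes. A RefSeq gene table lists 8 Cyp2b genes of the rat, all on chromosome 1. The 4 probe sets name 5 of these, and Cyp2b14, Cyp2b14l1 and Cyp2b15 are named by none.

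The samples were 19 arrays of liver from Wistar Han rats (Crl:WI (Han)), taken on postnatal day 4 from the left lateral lobe. Dams, obtained at 11 to 12 weeks of age, were given corn oil alone (vehicle, 5 arrays) or corn oil with DE-71 at 0.1 mg/kg (5 arrays), 15 mg/kg (4 arrays, replicates 2 to 5) or 50 mg/kg (5 arrays) per day. DE-71 is a commercial flame retardant mixture of pentabromodiphenyl ethers, and gavage ran from gestation day 6 through postnatal day 4. The labels state neither whether a liver came from a pup or a dam nor which litter it came from, and they give no genotype or allele.

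Cyp2b enzymes are monooxygenases of the endoplasmic reticulum that oxidise drugs, steroids and lipophilic pollutants. In rat liver Cyp2b1 and Cyp2b2 are the classical phenobarbital-inducible pair. An inducer activates the constitutive androstane receptor (CAR, gene Nr1i3), which moves to the nucleus, pairs with the retinoid X receptor (RXR) and binds an enhancer far upstream of the gene. The pregnane X receptor (PXR, gene Nr1i2) shares many of these targets. Cyp2b3 is known in rat as a liver form that phenobarbital does not induce, and Cyp2b12 as a form of the sebaceous preputial gland.

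Stretches upstream of the genes are shown because 1 probe set stands for a pair of genes while the others stand for single ones, and the stretches show how alike the pair is. Each runs 5′ to 3′ on the gene's strand from 250 to 51 bases before the RefSeq start, in build GRCr8. Capitals mark GCGTG, the core of the site bound by the aryl hydrocarbon receptor (AhR), or AGGTCA, a half-site of nuclear receptors.
Cyp2b1 (chr1:90645869-90646068, plus strand): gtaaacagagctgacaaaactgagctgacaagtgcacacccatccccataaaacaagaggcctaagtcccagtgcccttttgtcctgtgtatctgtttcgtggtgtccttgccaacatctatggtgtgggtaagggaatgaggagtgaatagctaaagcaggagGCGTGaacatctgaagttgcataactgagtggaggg
Cyp2b2 (chr1:90722031-90722230, plus strand): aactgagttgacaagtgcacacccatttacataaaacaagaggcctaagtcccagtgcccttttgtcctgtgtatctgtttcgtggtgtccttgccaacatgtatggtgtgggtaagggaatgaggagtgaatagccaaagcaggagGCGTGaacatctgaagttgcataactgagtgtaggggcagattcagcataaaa
Cyp2b3 (chr1:90780242-90780441, plus strand): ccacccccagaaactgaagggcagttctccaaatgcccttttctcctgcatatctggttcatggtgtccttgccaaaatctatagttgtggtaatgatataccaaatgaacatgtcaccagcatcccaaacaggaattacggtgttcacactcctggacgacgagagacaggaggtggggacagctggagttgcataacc
Cyp2b21 (chr1:91042803-91043002, minus strand): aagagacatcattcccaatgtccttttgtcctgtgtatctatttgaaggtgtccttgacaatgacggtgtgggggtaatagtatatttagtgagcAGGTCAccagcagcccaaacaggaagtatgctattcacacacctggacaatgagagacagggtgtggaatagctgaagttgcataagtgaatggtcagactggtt
Cyp2b12 (chr1:91135044-91135243, plus strand): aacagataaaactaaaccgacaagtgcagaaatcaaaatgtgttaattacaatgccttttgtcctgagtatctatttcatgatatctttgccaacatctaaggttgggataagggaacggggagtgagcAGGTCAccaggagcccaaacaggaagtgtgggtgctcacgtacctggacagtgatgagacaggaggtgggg

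The Cyp2b1 and Cyp2b2 stretches were identical at 176 of 183 aligned positions (96.2%) with no gap. The other 9 pairs ranged from 59.5% to 74.1%, the closest being Cyp2b3 with Cyp2b21. GCGTG stood 86 bases before the start of Cyp2b1 and 103 bases before that of Cyp2b2, and AGGTCA stood 155 bases before the start of Cyp2b21 and 121 before that of Cyp2b12. Of 33469 RefSeq promoter windows of the same length, 21.2% held GCGTG and 11.2% held AGGTCA on either strand. Of the other motifs searched on both strands, CCAAT (in 28.8% of windows) occurred once, in Cyp2b21, and TGTACT (6.84%) and TATAA (19.4%) occurred in none of the 5 stretches. The marked motifs do not overlap, and a match describes letters in this window, not a site in use. The known phenobarbital enhancer lies outside the stretches.

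All levels are the authors' log2 RMA signals, a scale on which a difference of 1 is a doubling. Single values of the whole table ran from 2.395 to 15.06, and a level is not compared between probe sets. The hepatocyte list averaged 14.22 to 14.29 in vehicle, 14.22 to 14.26 at 0.1 mg/kg, 14.23 to 14.29 at 15 mg/kg and 14.17 to 14.28 at 50 mg/kg (9 of 10 genes measured). In these pieces of tissue, fewer cells of a type and less RNA per cell cannot be told apart. The labels give the sex as female, and the Y-linked transcript Eif2s3y read 9.55 to 10.07 on all 19 arrays. The probe sets of Xist, the transcript of the inactive X of females, read between 2.83 and 4.29. Both readings go against the female label and against livers of dams.

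Several arrays stood apart from the rest. Cyp1a1, the monooxygenase of the AhR response, read 14.06 in the library labelled 0.1 mg/kg replicate 1, against 7.19 to 8.42 in the other 4 of its group. Cyp1a1 read 7.10 to 8.36 in vehicle, 13.16 to 14.17 at 15 mg/kg and 14.11 to 14.30 at 50 mg/kg, so that library went against its label. Vehicle replicate 2 and 0.1 mg/kg replicate 2 were the closest of 171 pairs of arrays, with a root mean square (RMS) difference of 0.128 log2 units over all probe sets. The next closest pair differed by 0.197, and the median pair by 0.385. Both libraries also held kidney transcripts, at a marker mean of 9.67 in 0.1 mg/kg replicate 2 and 9.66 in vehicle replicate 2, against at most 6.92 elsewhere. Results are given with all 19 arrays and, where it matters, without these 3. The muscle marker mean was also raised, at 8.55 and 8.52 in 50 mg/kg replicates 2 and 3, and at 10.31 and 8.22 in vehicle replicates 1 and 5, against at most 7.09 elsewhere. The pancreas marker mean was 8.52 and 7.33 in vehicle replicates 2 and 4, 8.49 in 0.1 mg/kg replicate 2 and 7.94 in 15 mg/kg replicate 5, against at most 5.44 elsewhere. Medians in vehicle and at 0.1, 15 and 50 mg/kg were 11.71, 11.19, 11.10 and 10.90 for erythroid markers, 12.79, 12.41, 12.40 and 12.24 for neutrophil markers and 9.97, 8.98, 9.82 and 9.03 for stellate cell markers. The part of these cell types in the results was not tested beyond the fits that leave arrays out.

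Of the 4 probe sets, that of Cyp2b1 and Cyp2b2 was the one that rose. It was 4.03-fold higher at 50 mg/kg than in vehicle and 3.41-fold higher at 15 mg/kg, where the adjusted p missed the threshold over all 19 arrays. Between 50 and 15 mg/kg its means were 0.24 log2 units apart. No other Cyp2b probe set passed the test in any of the 6 comparisons of dose groups. Cyp2b21 had small differences in the same direction at the higher doses, and Cyp2b12 lay at the bottom of the signal range in all groups. Over all 19 arrays Cyp2b3 differed most from vehicle at 15 mg/kg, by an amount that varied with the arrays left out.

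The signal of the Cyp2b1/Cyp2b2 probe set was 11.94, 11.85, 12.48, 12.67 and 12.45 in vehicle replicates 1 to 5. At 0.1 mg/kg it was 14.06, 11.84, 12.58, 12.45 and 12.71, the first of these from the library that went against its label. At 15 mg/kg it was 14.15, 14.04, 14.09 and 13.92 in replicates 2 to 5, and at 50 mg/kg it was 14.24, 14.24, 14.41, 14.34 and 14.22. All 9 arrays of the 15 and 50 mg/kg groups lay above every vehicle array. Without the library labelled 0.1 mg/kg replicate 1, they also lay above every 0.1 mg/kg array. The lowest vehicle and the lowest 0.1 mg/kg values came from the closely matching pair of arrays.

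**Figure D1:**
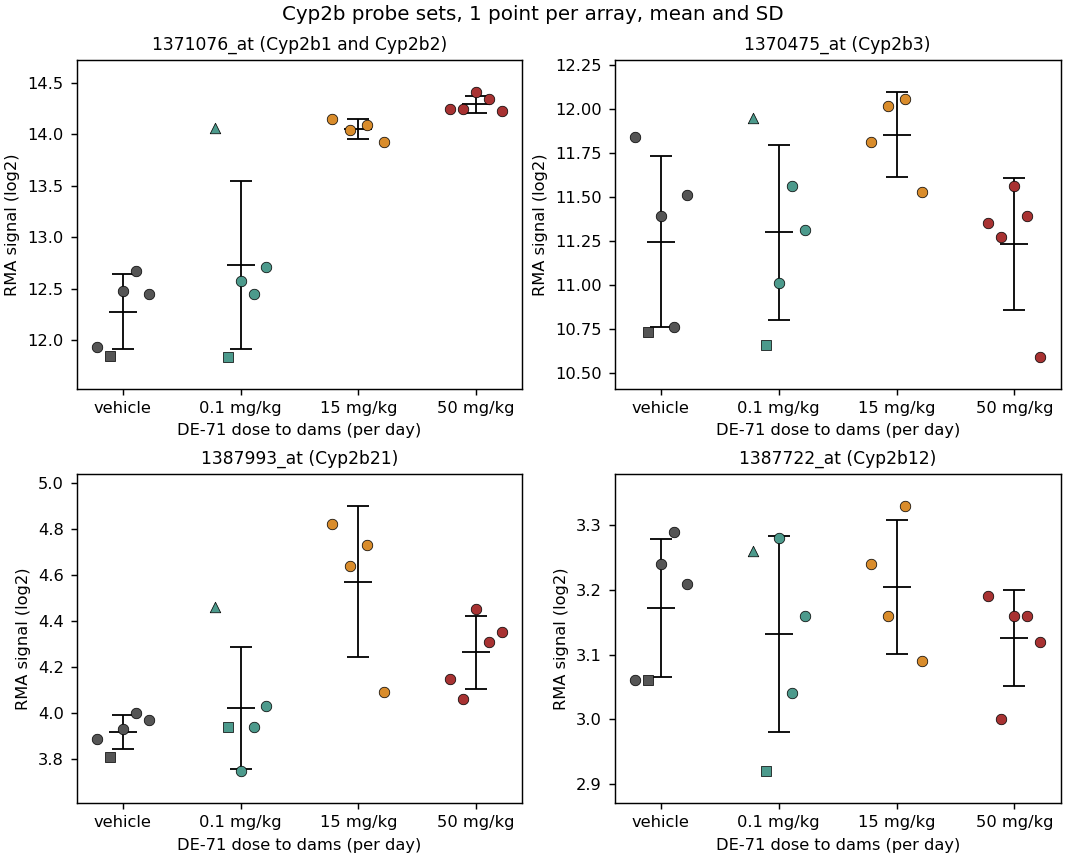
Log2 RMA signal of each Cyp2b probe set (y axis, a separate scale per panel, identifiers in the panel titles) by daily DE-71 dose (x axis), with 1 point per array and the group mean with its SD. For the Cyp2b1/Cyp2b2 probe set all 15 and 50 mg/kg arrays sit at 13.92 or above and all vehicle arrays at 12.67 or below; the triangle is the library labelled 0.1 mg/kg replicate 1 and the squares are vehicle replicate 2 and 0.1 mg/kg replicate 2.

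The mean of the Cyp2b1/Cyp2b2 probe set at 50 mg/kg was 14.29 ± 0.0802 (SD, n = 5), against 12.28 ± 0.36 in vehicle (SD, n = 5). The difference was 2.01 (SE 0.273, 95% interval 1.44 to 2.58), with an adjusted p of 0.00123 by limma (moderated test, Benjamini-Hochberg over the whole table). It was the only one of the 4 probe sets that passed at 50 mg/kg, where 1.61% of all probe sets passed, 1.22% rising and 0.383% falling. The exact two-sided permutation p was 0.00794, the smallest that 5 against 5 arrays allow, in a family of 24 such tests whose p-values are not adjusted. Without the 3 arrays set apart the difference was 1.90 (adjusted p = 7.13e-07, limma), and without the 7 arrays set apart or rich in muscle transcripts it was 1.69 (adjusted p = 5.95e-05). Without the 4 arrays rich in pancreas transcripts, 2 of which are among those 7, it was 2.00 (adjusted p = 0.01). Of these groups, the fit without the 7 arrays keeps only vehicle replicates 3 and 4 and 50 mg/kg replicates 1, 4 and 5.

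In the 15 mg/kg group the mean of the Cyp2b1/Cyp2b2 probe set was 14.05 ± 0.0991 (SD, n = 4), against 12.28 ± 0.36 in vehicle. The difference was 1.77 (SE 0.289, 95% interval 1.16 to 2.38), with an adjusted p of 0.0724 by limma. No probe set of the table passed in this comparison (0%), while 3083 had an unadjusted p under 0.05. Its exact two-sided permutation p was 0.0159, the smallest that 4 against 5 arrays allow. The adjusted p depended on the shared spread, to which the library labelled 0.1 mg/kg replicate 1 contributes. Without that library it was 0.000113 with the same difference, and 11 probe sets of the table passed. Without 15 mg/kg replicate 5, one of the arrays rich in pancreas transcripts, the difference was 1.81 (adjusted p = 0.0757). Over 22 alternative fits, these included, the adjusted p ran from 1.02e-05 to 0.34, and 8 of them passed.

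At 0.1 mg/kg the mean was 12.73 ± 0.816 (SD, n = 5), against 12.28 ± 0.36 in vehicle. The difference was 0.45 (95% interval -0.13 to 1.02, limma adjusted p = 1.0), with overlapping groups. Without the library that went against its label the difference was 0.11, and without the 3 arrays set apart it was 0.19, with 12.58 ± 0.13 at 0.1 mg/kg (SD, n = 3) and 12.39 ± 0.311 in vehicle (SD, n = 4). No probe set of the table passed in this comparison (0%), and 763 had an unadjusted p under 0.05. These values leave room for a difference of up to 1.02 log2 units and do not show that the low dose and vehicle are alike.

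The order of the means was 50, 15 and 0.1 mg/kg, then vehicle. The top neighbours did not differ past the threshold: 50 mg/kg exceeded 15 mg/kg by 0.24 (95% interval -0.37 to 0.85, limma adjusted p = 0.92). No probe set of the table passed between these doses (0%), and 2417 had an unadjusted p under 0.05. Their arrays did not overlap, the lowest at 50 mg/kg reading 14.22 and the highest at 15 mg/kg 14.15, and 1.84% of all probe sets had this property in this comparison. The exact two-sided permutation p was 0.0159. Under the fit the spread comes from all 19 arrays, and the SD within each of the 15 and 50 mg/kg groups was 0.0991 or less. These signals lie near the top of the range, where the highest value of the table was 15.06. Differences can be compressed there, which can narrow both the gap between the doses and the SDs, and this was not measured. A plateau between the doses was not tested.

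The mean at 15 mg/kg exceeded that at 0.1 mg/kg by 1.32 (95% interval 0.71 to 1.93, limma adjusted p = 0.892), and the groups overlapped through 1 library. In that comparison 0% of all probe sets passed by limma and 1684 had an unadjusted p under 0.05. Without the library labelled 0.1 mg/kg replicate 1 the difference was 1.66 (adjusted p = 0.0008). The mean at 50 mg/kg exceeded that at 0.1 mg/kg by 1.56 (95% interval 0.99 to 2.14, adjusted p = 0.0185), where 0.238% of all probe sets rose. Its arrays did not overlap with those at 0.1 mg/kg, as held upward for 1.41% of all probe sets. This call was lost without any one of replicates 1, 3 and 4 at 50 mg/kg or 3, 4 and 5 at 0.1 mg/kg, with adjusted p-values of 0.0521 to 0.0728 and differences of 1.49 to 1.58. It was also lost when blocked on early against late arrays (1.34, adjusted p = 0.195), with array number as a covariate (1.44, adjusted p = 0.0859), in a fit of the 2 groups alone (adjusted p = 0.163) and without the 4 arrays rich in pancreas transcripts (1.34, adjusted p = 0.0544). Without the library labelled 0.1 mg/kg replicate 1 the difference was 1.90 (adjusted p = 2.56e-05).

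**Figure D2:**
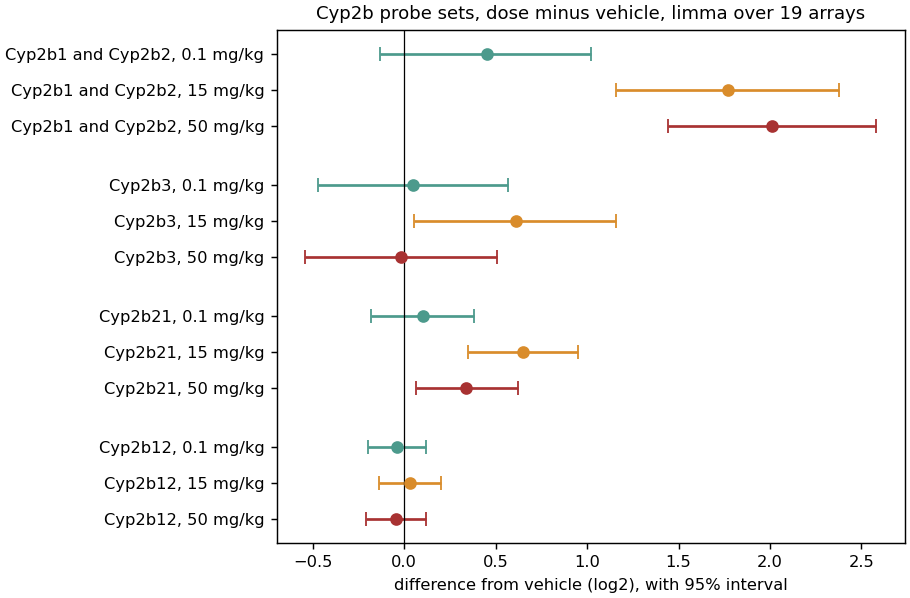
Difference of each dose group from vehicle in log2 units (x axis) for the 4 Cyp2b probe sets, as limma's estimate over 19 arrays with its 95% interval. At 50 mg/kg the interval of the Cyp2b1/Cyp2b2 probe set (1.44 to 2.58) lies above those of the other 3, whose highest bound is 0.62, while at 15 mg/kg its interval (1.16 to 2.38) meets the upper bound of Cyp2b3 (0.051 to 1.16).

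By the array numbers in the sample descriptions the series was split into 7 early (1 to 8) and 12 late (9 to 20) arrays. The cut was set for this comparison, and the names early and late refer to these numbers alone. Of the 5 arrays at 50 mg/kg 4 were early, as was 1 array of each other group. Within the early arrays the Cyp2b1/Cyp2b2 probe set averaged 14.31 at 50 mg/kg (n = 4), against 11.94 in vehicle (n = 1). Within the late arrays it averaged 12.36 in vehicle (n = 4) and 14.02 at 15 mg/kg (n = 3), and read 14.22 at 50 mg/kg (n = 1). The differences from vehicle at 50 mg/kg were 2.36 early and 1.85 late, and at 15 mg/kg 2.21 early and 1.65 late. Blocking on early against late arrays, the difference at 50 mg/kg was 1.79 (limma adjusted p = 0.0185) and at 15 mg/kg 1.75 (adjusted p = 0.0414). At 0.1 mg/kg the late arrays averaged 12.39 (n = 4), against 12.36 in vehicle (n = 4), a difference of 0.03.

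**Figure D3:**
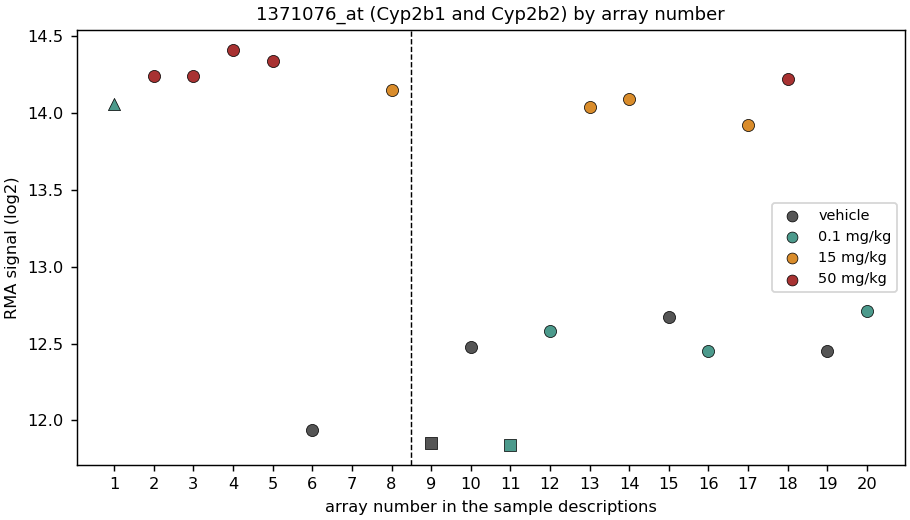
Log2 RMA signal of the Cyp2b1/Cyp2b2 probe set (y axis) by the array number in the sample descriptions (x axis), coloured by dose label, with the dashed line between early (1 to 8) and late (9 to 20) arrays. On both sides of the line the 15 and 50 mg/kg arrays lie at 13.92 or above and the vehicle arrays at 12.67 or below; array 1 is the library labelled 0.1 mg/kg replicate 1.

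Cyp1a1 and Cyp2b1/Cyp2b2 placed the arrays alike. The library labelled 0.1 mg/kg replicate 1 read 14.06 for both, inside the range of the 15 mg/kg arrays in the Cyp2b1/Cyp2b2 probe set (13.92 to 14.15) and in Cyp1a1 (13.16 to 14.17). The other 4 arrays of the 0.1 mg/kg group read 11.84 to 12.71 in the Cyp2b1/Cyp2b2 probe set, beside 11.85 to 12.67 in vehicle. Cyp1a1 rose 91.3-fold at 50 mg/kg against vehicle (limma adjusted p = 0.00123).

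**Figure D4:**
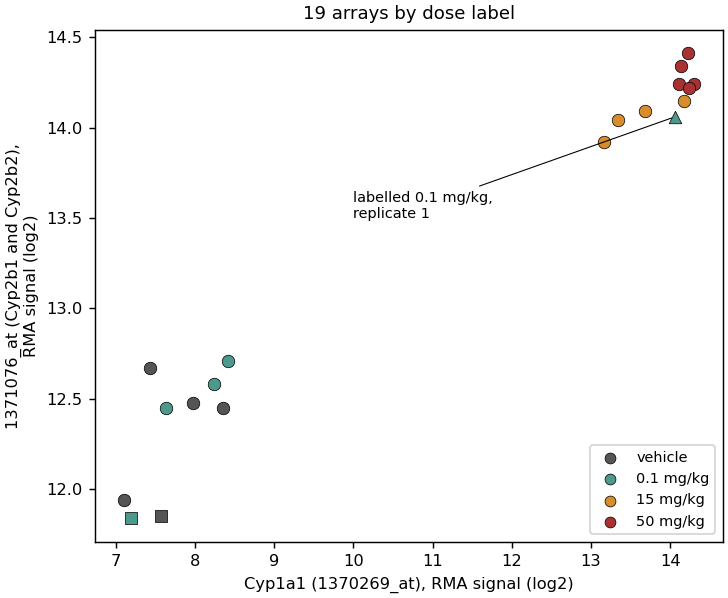
Log2 RMA signal of the Cyp2b1/Cyp2b2 probe set (y axis) against that of Cyp1a1 (x axis) for the 19 arrays, coloured by dose label. The library labelled 0.1 mg/kg replicate 1 (triangle, 14.06 on both axes) lies with the 15 and 50 mg/kg arrays, and vehicle replicate 2 and 0.1 mg/kg replicate 2 (squares) read 11.85 and 11.84 on the y axis.

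Cyp2b3 had 11.84, 10.73, 11.39, 10.76 and 11.51 in vehicle replicates 1 to 5. At 0.1 mg/kg it had 11.95, 10.66, 11.01, 11.56 and 11.31. At 15 mg/kg it had 11.81, 12.02, 12.06 and 11.53, and at 50 mg/kg 11.35, 11.27, 11.56, 11.39 and 10.59. The 15 mg/kg arrays were the highest group on average and overlapped with every other group, and 50 mg/kg replicate 5 was the lowest array. The mean was 11.25 ± 0.487 in vehicle (SD, n = 5), 11.30 ± 0.499 at 0.1 mg/kg (SD, n = 5), 11.86 ± 0.245 at 15 mg/kg (SD, n = 4) and 11.23 ± 0.376 at 50 mg/kg (SD, n = 5).

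None of the differences of Cyp2b3 passed. At 50 mg/kg Cyp2b3 differed from vehicle by -0.017 (95% interval -0.54 to 0.51, limma adjusted p = 0.98). Over the alternative fits this difference ran from -0.37 to 0.14. The 15 mg/kg group exceeded vehicle by 0.61 (95% interval 0.051 to 1.16, adjusted p = 0.472). Over the alternative fits that difference ran from 0.38 to 0.78, the lowest being without the 4 arrays rich in pancreas transcripts. Without those 4 arrays the difference of 50 mg/kg from vehicle was -0.35. The 50 mg/kg group was 0.62 below the 15 mg/kg group (difference -0.62, 95% interval -1.18 to -0.068, adjusted p = 0.601), with an exact two-sided permutation p of 0.0317. Within the early arrays the difference between 50 mg/kg (n = 4) and 15 mg/kg (n = 1) was -0.42. Within the late arrays it was -1.28, between 50 mg/kg (n = 1, replicate 5) and 15 mg/kg (n = 3). At 0.1 mg/kg the difference from vehicle was 0.049, and it was -0.11 without the library labelled 0.1 mg/kg replicate 1.

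Cyp2b21, which belongs to the same gene cluster, read low on the array scale. Its signal was 3.89, 3.81, 3.93, 4.00 and 3.97 in vehicle and 4.46, 3.94, 3.75, 3.94 and 4.03 at 0.1 mg/kg. It was 4.82, 4.64, 4.73 and 4.09 at 15 mg/kg and 4.15, 4.06, 4.45, 4.31 and 4.35 at 50 mg/kg. Every array at 15 and at 50 mg/kg lay above every vehicle array, and the 0.1 mg/kg group overlapped with vehicle. The highest 0.1 mg/kg value was again that of the library that went against its label.

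Cyp2b21 averaged 4.27 ± 0.155 at 50 mg/kg (SD, n = 5) and 3.92 ± 0.0745 in vehicle (SD, n = 5). The difference was 0.34 (95% interval 0.065 to 0.62, limma adjusted p = 0.218). In the 15 mg/kg group it averaged 4.57 ± 0.33 (SD, n = 4), a difference from vehicle of 0.65 (95% interval 0.35 to 0.95, adjusted p = 0.316). Neither passed, while the exact two-sided permutation p was 0.00794 at 50 mg/kg and 0.0159 at 15 mg/kg. The 50 mg/kg mean was below the 15 mg/kg mean (difference -0.31, 95% interval -0.60 to -0.0091, adjusted p = 0.635), and these groups overlapped. Against vehicle, 2 of the 4 probe sets, those of Cyp2b1/Cyp2b2 and of Cyp2b21, had all arrays above at each of these doses, a property of 3.21% of all probe sets at 50 mg/kg and 2.21% at 15 mg/kg. RMA compresses differences near the bottom of the range. No detection call was used, so these values do not settle how much of the signal is transcript, and the platform gives no check on signal shared with other Cyp2b genes.

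Cyp2b12 read between 2.92 and 3.33 on all arrays. It averaged 3.17 ± 0.107 in vehicle (SD, n = 5), 3.13 ± 0.155 at 0.1 mg/kg (SD, n = 5), 3.20 ± 0.104 at 15 mg/kg (SD, n = 4) and 3.13 ± 0.0772 at 50 mg/kg (SD, n = 5). Its differences from vehicle were -0.039 at 0.1 mg/kg, 0.032 at 15 mg/kg and -0.044 at 50 mg/kg, all with overlapping groups, and the signs at 15 mg/kg and at 0.1 mg/kg turned under some settings. The 95% interval at 50 mg/kg ran from -0.21 to 0.12 (limma adjusted p = 0.814). Markers of epidermis and sebaceous gland (8 of 9 measured) averaged 5.79 to 6.68 in vehicle, 5.80 to 6.20 at 0.1 mg/kg, 5.72 to 6.27 at 15 mg/kg and 5.57 to 6.76 at 50 mg/kg.

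A list of genes taken here as CAR or PXR targets, written with earlier results of these data known, was set beside the Cyp2b probe sets. Which receptor acts on a listed gene in these livers was not tested. Of 43 listed genes 37 were measured by a probe set with 1 symbol, and of these 18 (48.6%) rose at 50 mg/kg, none fell and 19 did not pass (limma, adjusted p), where 1.22% of all probe sets rose. The differences ran from -0.22 to 4.08 with a median of 0.83, against 0.018 over all probe sets. Of the same 37, 0 passed at 15 mg/kg, 15 had all arrays above vehicle (2.21% of all probe sets did) and the median was 0.53. At 0.1 mg/kg 0 passed and the median was 0.22, against 0.0214 over all probe sets. That group includes the library that went against its label, whose part in this median was not tested. The count at 50 mg/kg was 8 when blocked on early against late arrays, 7 without the 7 arrays set apart or rich in muscle transcripts and 12 without the 4 rich in pancreas transcripts. Without the library labelled 0.1 mg/kg replicate 1, 5 passed at 15 mg/kg. These shares describe the list and are not a test, since earlier results could have shaped its choice. A listed gene also stands for its single-symbol probe set with the highest mean, while the shares beside it cover all probe sets. The same holds for the lists below.

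The largest rises at 50 mg/kg among these genes were 16.9-fold in Cyp2a3 and 11.2-fold in Cyp2c7, both P450 enzymes. Cyp2c6v1, a P450 of rat liver that phenobarbital induces, rose 4.89-fold, with a difference of 2.29 (SE 0.367, limma adjusted p = 0.00428), a call lost when blocked on early against late arrays (1.99, adjusted p = 0.053). Its differences from vehicle at 15 and 50 mg/kg were 2.12 and 2.29, beside 1.77 and 2.01 for the Cyp2b1/Cyp2b2 probe set. Abcc3, an export pump for conjugates, rose 3.76-fold, and Ces2c, a carboxylesterase, rose 3.37-fold. Without the 7 arrays set apart or rich in muscle transcripts the calls of Cyp2c7 (3.40, adjusted p = 0.0551), Abcc3 (1.81, adjusted p = 0.0551) and Ces2c (1.59, adjusted p = 0.0602) were lost. With all arrays these differences were 3.48, 1.91 and 1.75. That smaller fit keeps vehicle replicates 3 and 4 and 50 mg/kg replicates 1, 4 and 5, so fewer arrays alone can cost a call. Tsku, a secreted proteoglycan, rose 3.57-fold (adjusted p = 0.0298). That call was lost without any one of replicates 1, 3 and 4 at 50 mg/kg or 1, 2 and 5 in vehicle, with adjusted p-values of 0.0688 to 0.0807. It was also lost when blocked on early against late arrays (1.52, adjusted p = 0.177), with array number as a covariate (1.60, adjusted p = 0.0977) and without the same 7 arrays, where the difference was 1.14 (adjusted p = 0.252) in place of 1.84. The 15 mg/kg differences of Cyp2a3, Cyp2c7, Abcc3, Ces2c and Tsku were 2.80, 2.47, 1.21, 0.97 and 1.36, and none passed.

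**Figure D5:**
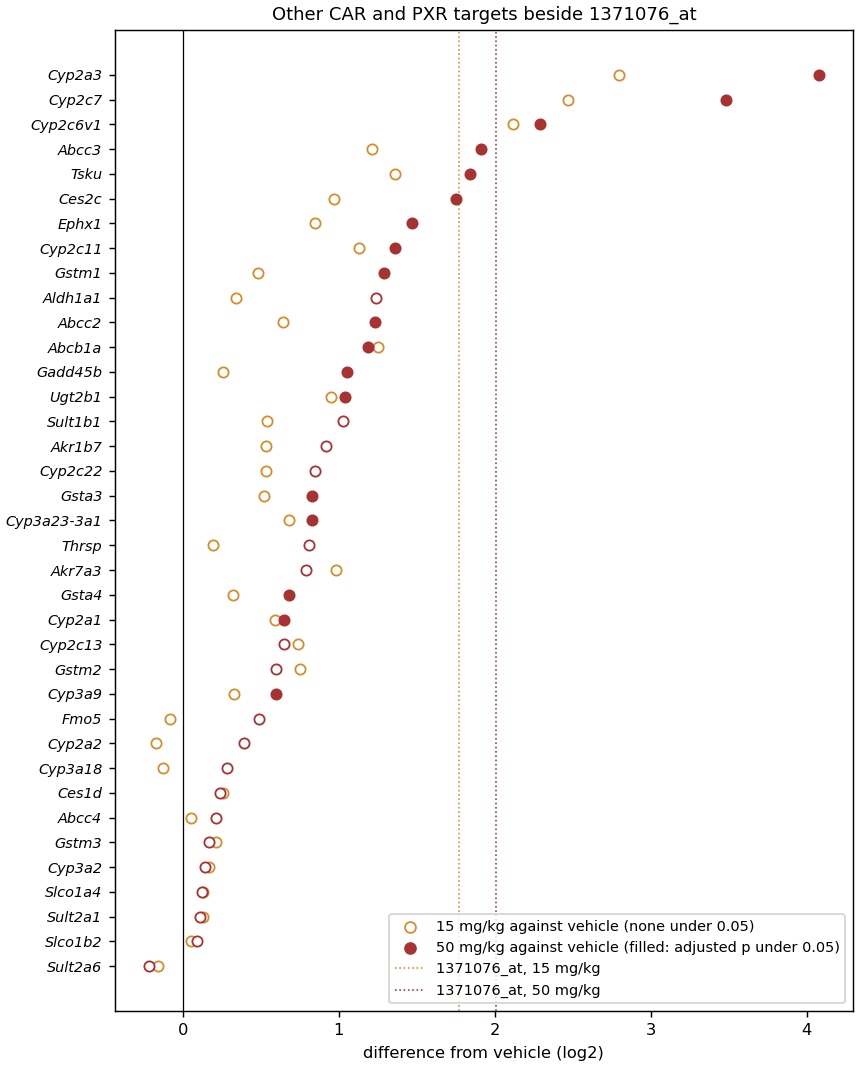
Difference from vehicle in log2 units (x axis) at 15 and 50 mg/kg for the 37 measured genes of the CAR and PXR target list (y axis), filled where the limma adjusted p is under 0.05, with dotted lines at the differences of the Cyp2b1/Cyp2b2 probe set. At 50 mg/kg 18 genes are filled, and Cyp2a3, Cyp2c7 and Cyp2c6v1 lie to the right of the line at 2.01.

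The receptors' own transcripts did not pass the test. Nr1i3, which encodes CAR, differed from vehicle by -0.18 at 50 mg/kg (95% interval -0.58 to 0.21, limma adjusted p = 0.671), Nr1i2, which encodes PXR, by 0.24 (-0.11 to 0.60, adjusted p = 0.512) and Rxra, which encodes an RXR, by 0.19 (-0.16 to 0.54, adjusted p = 0.606). Of the 21 measured genes of the CAR and PXR regulator list (25 listed), 0 passed at any dose, and the median at 50 mg/kg was -0.0078. Of the P450 supply list, which holds electron donors and heme enzymes, 4 of 13 measured genes (30.8%) rose at 50 mg/kg and none fell, where 1.22% of all probe sets rose. They were Alas1, the rate-limiting enzyme of heme synthesis (difference 1.51, adjusted p = 0.00159), Por, the P450 reductase (1.31, adjusted p = 0.0094), Pgrmc1, a heme-binding membrane protein (0.44, adjusted p = 0.0129) and the cytochrome Cyb5a (0.41, adjusted p = 0.0412). Alas1 alone of the 4 passed when blocked on early against late arrays, without the 7 arrays set apart or rich in muscle transcripts, and without the 4 rich in pancreas transcripts. In these 3 fits the adjusted p was 0.0821, 0.247 and 0.063 for Por, 0.104, 0.273 and 0.0876 for Pgrmc1, and 0.229, 0.354 and 0.103 for Cyb5a. The Cyb5a call was also lost in 9 of 11 fits without a single array. Of the Cyp2 genes in the target list, Cyp2a1, Cyp2a3, Cyp2c6v1, Cyp2c7 and Cyp2c11 rose at 50 mg/kg over all 19 arrays. Cyp2a2, Cyp2c13 and Cyp2c22 did not pass. A list of other Cyp2 genes leaves these out, and of its 14 measured genes 1 (7.14%) rose, against 1.22% of all probe sets, with a median of 0.024. It was Cyp2d4 (0.39, adjusted p = 0.0385), whose call was lost in 12 of 23 alternative fits, 7 of them without a single array.

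Over the 19 arrays, the single-symbol probe sets closest to the Cyp2b1/Cyp2b2 probe set in deviations from their own means were Cyp2c6v1 (RMS distance 0.264 log2 units), Ugt2b10 (0.322), Abcc3 (0.329), Ifi27l2b (0.374), Alas1 (0.382) and Ephx1 (0.386). The median distance over single-symbol probe sets was 0.956, and the Cyp2b1/Cyp2b2 probe set itself deviated by 0.952. This distance follows the dose groups and the library that went against its label. When deviations were taken from the dose group means, 4 of the 6 nearest were the same genes: Ephx1 (0.188), Alas1 (0.192), Ifi27l2b (0.214) and Cyp2c6v1 (0.228), with Akr1c14 (0.213) and Cxcl2 (0.243) as the other two. Ugt2b10 is a glucuronosyltransferase and Ephx1 the microsomal epoxide hydrolase. Since the distance chose them, their differences from vehicle at 50 mg/kg, 1.96 and 1.47, are a description.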

How the data were processed

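Liver RNA of 19 samples was measured on Affymetrix Rat230_2 arrays, with 100 ng of RNA amplified by a 3' IVT kit, per the labels. The deposited values are log2 signals made by the authors with RMA, per the submitters' processing notes, with no version given in the sources used here. Differences at both ends of the signal range can be compressed, which was not measured here. Precision is limited by the number of arrays (4 or 5 a group). Separate animals or litters for the arrays of a group are not stated, and p-values therefore measure only the spread between these samples.

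Of 31099 probe sets 57 controls were left out. The platform annotation gave 20826 probe sets 1 gene symbol, 436 several and 9780 none, and symbols were updated by gene ID for 20758. limma 3.58.1 in R 4.3.3 fitted 1 mean per dose group over all 19 arrays, and p-values are two-sided with Benjamini-Hochberg adjustment over 31042 probe sets and a threshold of 0.05. Exact permutation tests used scipy 1.17.1. Promoter stretches are from RefSeq (GRCr8), aligned with biopython 1.88.

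The probe sets and gene lists were chosen with earlier results of these data known. The rule named every Cyp2b probe set, the 6 single-symbol genes nearest to the Cyp2b1/Cyp2b2 probe set, the 6 called target genes that changed most at 50 mg/kg, Nr1i3, Nr1i2, Rxra, Por, Alas1 and Cyp1a1. Cyp2d4, Cyb5a, Pgrmc1, Akr1c14, Cxcl2, Cyp2a1, Cyp2a2, Cyp2c11, Cyp2c13 and Cyp2c22 were named after their values were seen. The comparisons of 15 and 50 with 0.1 mg/kg were also added then. A listed gene stands for its single-symbol probe set with the highest mean. Other settings tried were a median-level filter, trend and robust priors, the compared groups alone, a replicate block, an early and late block, array number as a covariate, median centring, cyclic loess, array weights, each array left out, and the arrays set apart left out. The sets of 3, 4 and 7 arrays left out together, and the settings tried on Cyp2d4, Cyb5a and Pgrmc1, were chosen after seeing the data. The fit was tested on simulated data.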

Additional observations from a re-analysis of the deposited data

Results flagged for a closer look

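In 76 groups of 4 or 5 arrays tested, 4 single values lay far from the rest of their group, and chance alone picks out about 1 in 20 groups. The library labelled 0.1 mg/kg replicate 1 was the highest of its group in Cyp1a1 at 14.06 (the next array read 8.42), in Cyp2c7 at 7.06 (next 5.00) and in Ces2c at 7.37 (next 6.35). In Tsku, 15 mg/kg replicate 3 was the lowest of its group at 9.55, with the nearest array at 10.04. Values were judged by the gap to the nearest array as a share of the group's range, and by this no Cyp2b value was flagged. The library labelled 0.1 mg/kg replicate 1 still read 14.06 in the Cyp2b1/Cyp2b2 probe set, with the next array of its group at 12.71.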

How the results depend on the processing

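The rise of the Cyp2b1/Cyp2b2 probe set at 50 mg/kg against vehicle kept its direction and stayed past the threshold in all 23 alternative fits (1.69 to 2.11, limma adjusted p 7.13e-07 to 0.0185). At 15 mg/kg against vehicle it passed with the filter at the median level (1.77), with the compared groups alone (1.77) and with the early and late block (1.75). It also passed with array number as a covariate (1.80), with array weights (1.64), without the 3 arrays set apart (1.66) and without the 7 arrays (1.48). The difference ranged from 1.66 to 1.87 with single arrays left out. Against 0.1 mg/kg, 15 mg/kg passed without the 3 arrays (1.47) and without the 7 arrays (1.47). That difference ranged from 1.10 to 1.66 with single arrays left out. The exact permutation p for 15 mg/kg was 0.0159 against vehicle (1.77) and 0.0476 against 0.1 mg/kg (1.32). Both are unadjusted p-values from a family of 24 tests and are not counted as passing. Against 0.1 mg/kg, 50 mg/kg missed the threshold with the compared groups alone (1.56, adjusted p = 0.163), the early and late block (1.34, 0.195), array number (1.44) and without the 4 pancreas-rich arrays (1.34), and ranged from 1.34 to 1.90 with single arrays left out. By exact permutation the differences between 50 and 15 mg/kg of 0.24 (Cyp2b1/Cyp2b2) and -0.62 (Cyp2b3) and those of Cyp2b21 (0.34 at 50 and 0.65 at 15 mg/kg against vehicle, 0.55 between 15 and 0.1 mg/kg) had an unadjusted p under the threshold. The causes of these shifts were not tested.

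Small differences turned sign, none of them past the threshold. Cyp2b3 at 50 mg/kg against vehicle was 0.018 with centring, 0.0086 with array weights and 0.031 without the 7 arrays (-0.15 to 0.14 with single arrays left out). Cyp2b3 at 0.1 mg/kg was -0.085 without the 3 arrays and -0.12 without the 4 (single arrays left out: -0.11 to 0.21), and between 50 and 0.1 mg/kg it ran from -0.23 to 0.097. Cyp2b12 at 15 mg/kg against vehicle was -0.039 with loess, -0.0019 with weights and -0.061 without the 7 arrays (-0.01 to 0.07), at 0.1 mg/kg it ran from -0.076 to 0.015 (0.016 without the 4 arrays), and between 50 and 0.1 mg/kg it was 0.018 with centring (-0.059 to 0.032). Cyp2b21 at 0.1 mg/kg was -0.0066 with weights, -0.041 without the 3 arrays and -0.057 without the 7 (-0.0048 to 0.17). Without the 7 arrays Nr1i2 was -0.06 at 50 and -0.062 at 15 mg/kg, and Rxra was -0.084 at 50 mg/kg. Rxra at 15 mg/kg was 0.014 with the replicate block, 0.0026 with array number, 0.011 with centring and 0.043 without the 4 arrays (-0.11 to 0.14), and Nr1i3 at 15 mg/kg ran from -0.13 to 0.075 (0.052 without the 4 arrays).

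Probe sets passing at 50 mg/kg against vehicle (499) numbered 57 with the early and late block, 171 with array number, 921 with weights, 27 without the 7 arrays, 198 without the 4 and 178 to 616 with single arrays left out. At 15 mg/kg (0) they were 4, 2, 7, 8 and 13 with the filter, the groups alone, the early and late block, array number and weights, 10 without the 3 arrays, 4 without the 7 and 0 to 11 with single arrays left out. Between 15 and 0.1 mg/kg (0) they were 13 without the 3 arrays, 10 without the 7 and 0 to 9. Between 50 and 0.1 mg/kg (91) they were 147, 2, 3, 26 and 524 in the same order of settings, 243 without the 3 arrays, 35 without the 4 and 20 to 243.

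The labels share replicate numbers between groups, but same-numbered arrays did not deviate together in every pair of any comparison (correlations of -0.534 to 0.496 between 50 mg/kg and vehicle, and -0.189 to 0.373 between 15 mg/kg and vehicle). Between 0.1 mg/kg and vehicle all 5 were above 0 (0.0478 to 0.889, the highest from the closely matching arrays), with 1 of them under the 0.1 that pairing was taken to need, so the numbers were not taken as pairs. With the replicate block the Cyp2b1/Cyp2b2 probe set differed from vehicle by 2.01 at 50 mg/kg (adjusted p = 0.00363) and 1.85 at 15 mg/kg (adjusted p = 0.118), 511 probe sets passed at 50 mg/kg, and no call of a Cyp2b probe set changed.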
